A study of Mus musculus with 20 samples.

Results

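Dorsal skin of mice given the Toll-like receptor (TLR) antagonist IMO-3100 after interleukin-23 (IL-23) was compared with dorsal skin of mice given saline after IL-23, across all genes of the array. The 2 groups were chosen by their treatment labels and hold 5 arrays each, 10 of the 20 arrays of the series, with 1 mouse per array. All 10 mice were female C57BL/6, 6 weeks old at purchase, and had 3 µg of IL-23 injected intradermally into the back each day from day 1 to day 4. On days 4, 5 and 6 they received subcutaneous injections away from that site, either of 15 mg/kg IMO-3100 or of its vehicle, which the labels call saline and the methods PBS. Skin of the IL-23 site was taken on day 7. The mice of each group are called mice, or replicates, 1 to 5. The remaining 10 arrays, from naïve mice and from IL-23 mice given 15 mg/kg of the related antagonist IMO-8400, shared the fit and are used here to place each gene. No injection of any kind is recorded for the naïve mice. Although the design text of the series describes 2 dose levels of a single antagonist, the sample labels name 2 compounds, and the labels were followed.

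IL-23 maintains T helper 17 (Th17) cells and other lymphocytes that secrete IL-17A. Keratinocytes exposed to IL-17A release neutrophil-attracting chemokines and antimicrobial proteins, divide faster, and exchange part of the normal programme of cornification for the keratins and envelope proteins of a thickened epidermis. TLR7 and TLR9 are endosomal receptors for single-stranded RNA and for CpG-containing DNA, they signal through MyD88, and IMO-3100 is an oligonucleotide-based antagonist of both. The comparison asks which transcripts differed when this compound was given while IL-23 inflammation was under way, whether or not IL-23 itself had changed them.

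Expression is given as GCRMA log2 values, in which probe-sets without signal sit near the lowest value of 2.019 (the highest is 15.79). Array medians lay between 6.14 and 6.18 with IMO-3100 and between 6.09 and 6.18 with saline, and the 3' minus 5' difference of the Gapdh control probe-sets between 0.557 and 0.699 and between 0.570 and 0.689. The 75th percentile of the arrays did not overlap between the groups, at 9.76 to 9.85 with IMO-3100 and 9.85 to 9.88 with saline, where the lowest saline array was 9.854 and the highest IMO-3100 array 9.848. Each array correlated with the others of its group at a mean r of 0.990 to 0.992 with IMO-3100 and 0.987 to 0.990 with saline. The epidermal keratins marked both groups as skin, since Krt5 and Krt14 of basal keratinocytes averaged 14.14 and 14.63 with IMO-3100 and 14.30 and 14.80 with saline, and Krt1 of the suprabasal layers 14.06 and 14.13. None of these 3 keratins passed the test (limma with Benjamini-Hochberg adjusted p = 0.227, 0.0746 and 0.806).

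**Figure D1:**
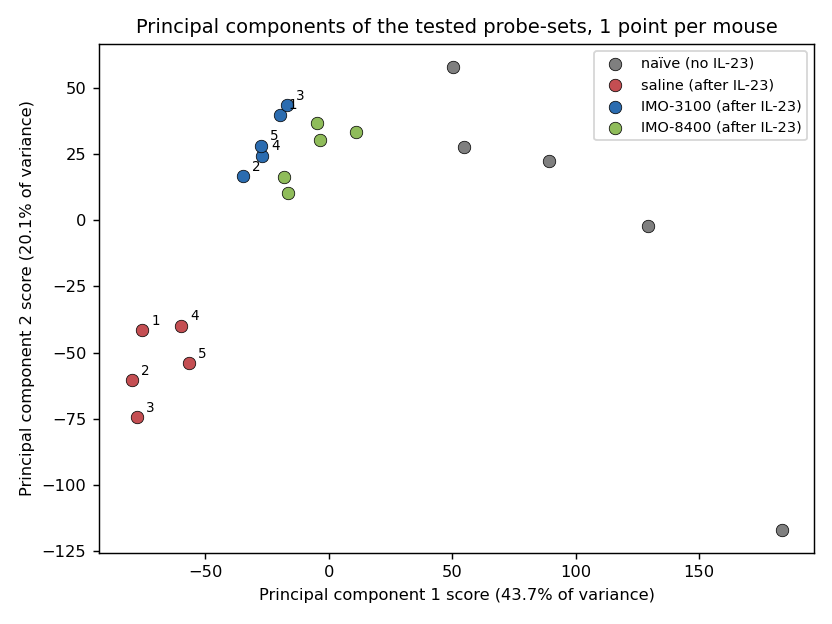
Position of each of the 20 arrays on the first 2 principal components of the tested probe-sets, with the share of variance on each axis (component 1 43.73%, component 2 20.12%) and 1 point per mouse coloured by group. IMO-3100 arrays lay between -34.6 and -17.0 on component 1 and saline arrays between -79.8 and -56.7, without overlap, while the naïve arrays were the most spread, from 50.4 to 183.

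IMO-3100 and saline skin differed at 1988 of 30960 probe-sets tested, and more of them fell than rose. A probe-set was called, or a differentially expressed gene (DEG), when limma gave a Benjamini-Hochberg false discovery rate (FDR) under 0.05 and the fold change (FCH) passed 2. At this rule 833 probe-sets (2.69%) were higher and 1155 (3.73%) lower with IMO-3100. With 1 probe-set per gene, the one of highest mean, 368 of 13909 genes (2.65%) were higher and 642 (4.62%) lower. Falls were also the larger changes, with 178 genes lower and 72 higher by over 4-fold, and 34 lower and 8 higher by over 16-fold. The median log2 fold change was 1.36 among the genes called higher, -1.47 among those called lower and -0.02 over all genes. Over all genes, 3364 (24.2%) had 5 IMO-3100 values that did not overlap the 5 saline values, and 870 of the 1010 genes called were among them. For scale, the saline and naïve groups differed at 2427 genes (17.4%) by the same rule and IMO-3100 and IMO-8400 at 72 (0.518%). Setting all arrays to a common 75th percentile gave 951 probe-sets higher and 1044 lower, and 411 and 577 genes. The 20 other settings, this one included, gave 292 to 452 genes higher and 543 to 797 lower.

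Genes were also read through 46 lists, 28 of pathways and 18 of cell type markers. In 19 lists every called member was lower with IMO-3100, in 9 every called member was higher, 7 held both and 11 held none.

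**Figure D2:**
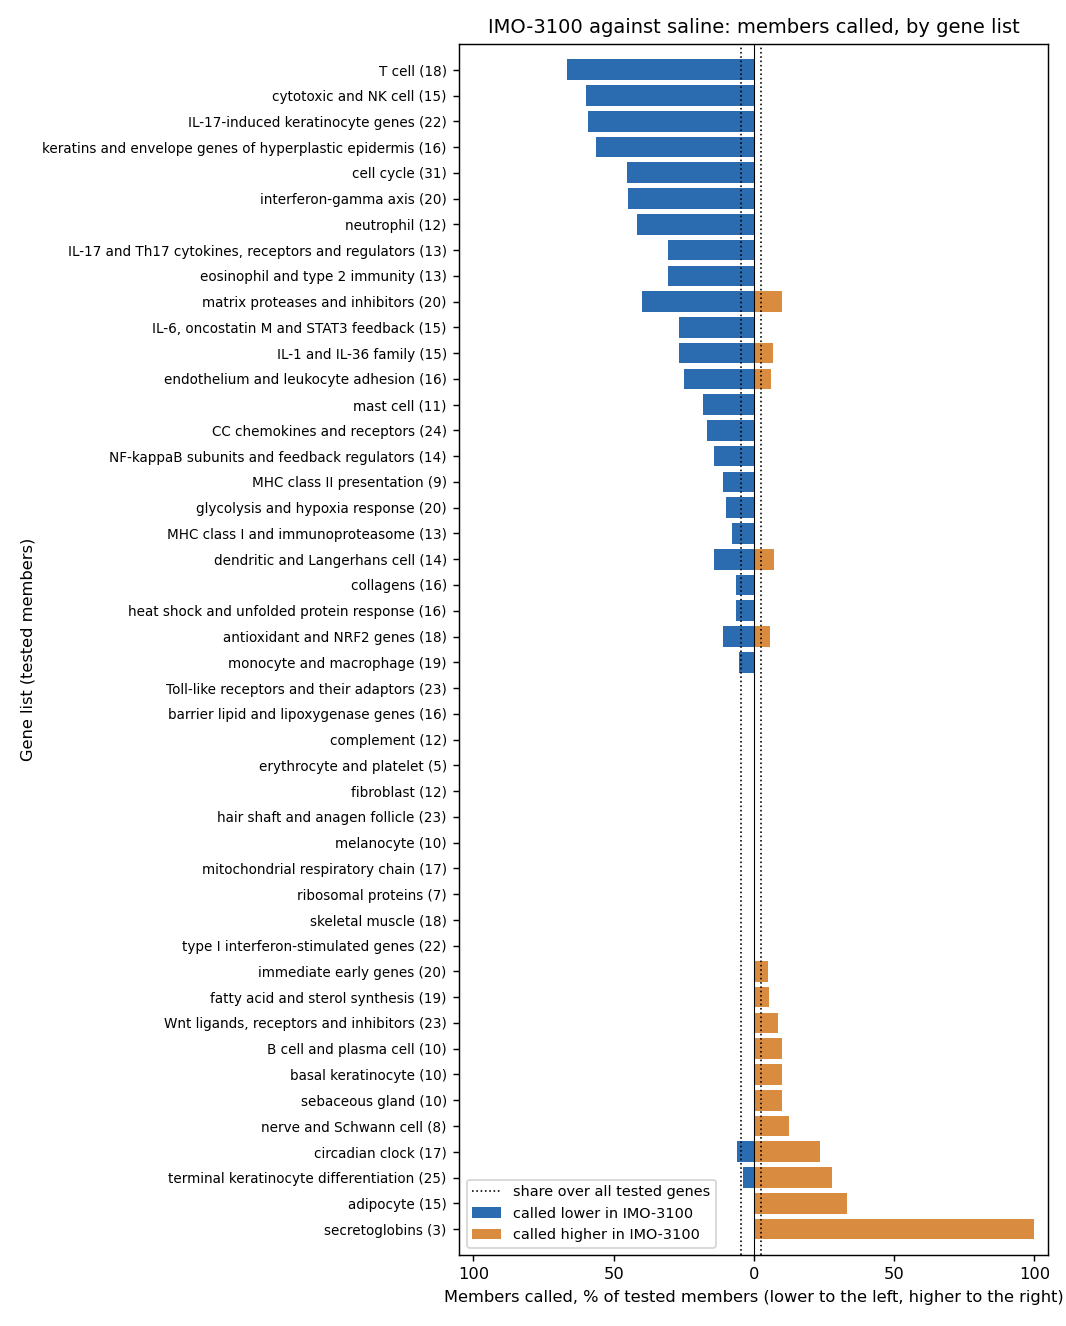
Share of the tested members of each gene list called lower (bars to the left of 0) or higher (to the right) with IMO-3100 against saline, in percent, with the number tested beside each name and dotted lines at the shares over all genes (4.62% lower, 2.65% higher). Among the longest bars to the left are T cell (12 of 18 members), cytotoxic and NK cell (9 of 15) and IL-17-induced keratinocyte genes (13 of 22), and the secretoglobins (3 of 3) reach farthest to the right.

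The epidermis changed in 2 directions at once. Called genes of the normal cornified layer were mostly higher with IMO-3100 and called genes of hyperplastic epidermis lower. Of 25 terminal differentiation genes, 7 were called higher and 1 lower, with a median log2 fold change of 0.74. The list means ran from 12.49 to 13.31 with IMO-3100, from 11.73 to 12.49 with saline and from 12.13 to 12.67 in naïve mice. In saline against naïve skin, 5 members of this list were called higher and 4 lower. Mt4, a metallothionein of stratified squamous epithelium, had the largest rise of any gene that met the naming rule, with values of 12.88, 12.93, 12.66, 12.22 and 12.78 with IMO-3100 and 3.94, 4.07, 4.10, 6.85 and 6.33 with saline. All 5 treated mice were far above all 5 saline mice, among which mice 4 and 5 were the higher (log2 fold change 7.64 with a standard error of 0.52, adjusted p = 3.28e-08). The treated mean of 12.70 lay beside the naïve mean of 12.73. Loricrin (Lor), the main protein of the cornified envelope, was at 13.76, 14.56, 14.44, 14.38 and 14.63 against 11.66, 12.30, 12.30, 13.32 and 13.09, again without overlap and again with saline mice 4 and 5 the highest of their group (log2 fold change 1.82, adjusted p = 0.000239). Lce1m, a late cornified envelope gene, rose by 2.91 on the log2 scale (adjusted p = 1.6e-07), with a treated range that began at 13.5 and a saline range that ended at 11.2. Profilaggrin (Flg), whose product binds keratin filaments, rose by 1.48 (adjusted p = 8.51e-05), and the suprabasal keratin Krt77 by 1.62 (adjusted p = 1.62e-05). The naïve mean of Flg, 11.61, was near its saline mean of 11.69. Krt10, the suprabasal keratin paired with Krt1, was higher by 0.48 (adjusted p = 0.00743), which is under 2-fold. Tgm3, a transglutaminase that cross-links envelope proteins, was called lower at -2.09 (adjusted p = 0.047), a call that 10 other settings lost.

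Within the treated group, mouse 1 stood apart in this list. It was the lowest of the 5 in 23 of the 25 members, and its mean over the list was 12.49 where the other 4 had 13.08 to 13.31. Without it 12 members were called higher instead of 7.

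The keratins and envelope genes of hyperplastic epidermis moved the other way, with 9 of 16 called lower, none called higher and a median log2 fold change of -2.06. Krt16, a keratin of wounded and hyperproliferative epidermis, was at 12.18, 13.13, 12.43, 14.20 and 13.49 with IMO-3100 and at 14.65, 14.84, 14.75, 14.82 and 14.80 with saline. The saline mice were nearly equal and the treated mice spread over 2 units, all of them below (log2 fold change -1.69 with a standard error of 0.33, adjusted p = 0.00158). Lce3b, a late cornified envelope gene of injured skin, had values of 2.69, 6.59, 3.34, 9.99 and 7.78 against 11.86, 12.20, 12.66, 11.85 and 13.01, so mice 1 and 3 were close to the level without signal and mouse 4 was within 2 units of the lowest saline mouse (log2 fold change -6.24 with a standard error of 1.05, adjusted p = 0.000527). Neighbouring Lce3 and Sprr2 genes are similar in sequence, and their probe-sets may share transcripts. Sprr2f, a small proline-rich envelope precursor, repeated that order at 4.59, 7.23, 6.02, 10.74 and 8.49 against 11.37, 11.87, 12.43, 11.93 and 12.61 (log2 fold change -4.63, adjusted p = 0.000637). Krt6a, the usual partner of Krt16, was lower by 2.05 (adjusted p = 0.000619), and Serpinb3a, a serine protease inhibitor of squamous epithelium, by 2.67 (adjusted p = 0.000296). Krt6b had an estimate of -2.75 that did not pass (adjusted p = 0.0558).

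The order of the treated mice recurred across the list. Mouse 4 was the highest of the 5 in 14 of the 16 members and mouse 1 the lowest in 13, and the list means of mice 1 to 5 were 9.89, 11.50, 10.48, 12.83 and 11.97. Every saline mouse was above them, at 13.21, 13.42, 13.69, 13.45 and 13.81, and the naïve mice below them, at 8.30 to 9.31. The largest fall of any gene that met the naming rule followed the same order. Uox, urate oxidase, an enzyme of purine breakdown, was at 2.06, 2.93, 2.08, 7.20 and 5.11 against 12.11, 11.79, 12.40, 11.49 and 12.60, near the level without signal in mice 1, 2 and 3 and clearly above it in mice 4 and 5 (log2 fold change -8.21 with a standard error of 1.21, adjusted p = 0.000208). Pla2g4d, a cytosolic phospholipase, was at 2.26, 2.71, 2.45, 6.61 and 4.13 against 8.07, 8.19, 9.06, 8.30 and 9.47, with mouse 4 the highest and mice 1, 2 and 3 near the level without signal (log2 fold change -4.98, adjusted p = 0.000167). Fetub, a liver protease inhibitor of the cystatin superfamily, was at 3.30, 6.00, 3.33, 7.72 and 7.66 against 9.80, 11.37, 11.32, 10.75 and 11.59, with mice 1 and 3 the lowest (log2 fold change -5.36, adjusted p = 0.000242).

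**Figure D3:**
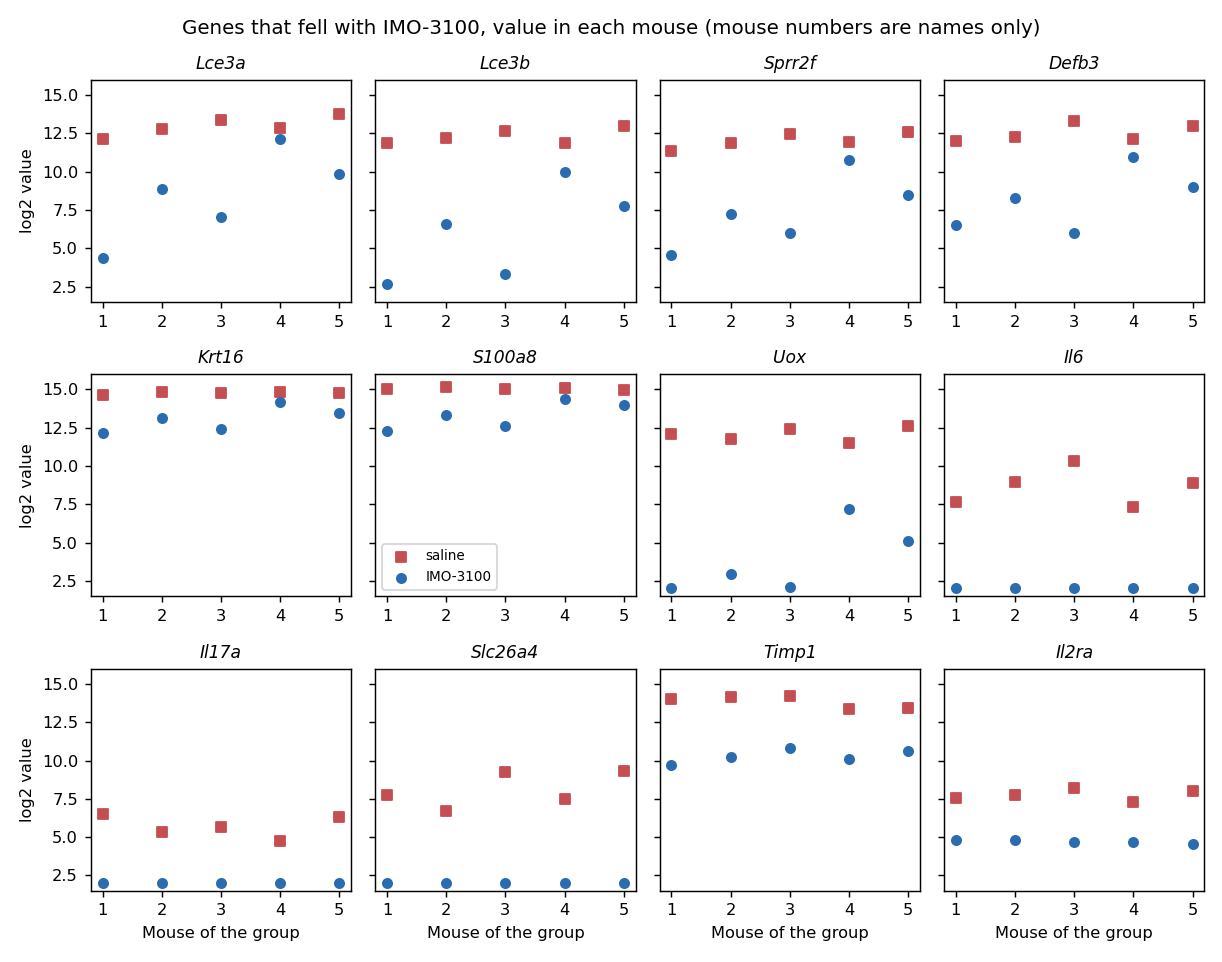
Log2 value of 12 genes that fell with IMO-3100 (vertical axis) in mice 1 to 5 of the saline group (squares) and of the IMO-3100 group (circles), where the mouse numbers are names and pair no mice. In Lce3b and its neighbours in the figure the IMO-3100 mice spread widely, with mouse 4 highest (Lce3b 9.99) and mouse 1 lowest (2.69), whereas Il6 and Il17a were at the level without signal in all 5.

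Of 13 Th17 and IL-17 cytokine, receptor and regulator genes, 4 were called lower and none higher, with a median log2 fold change of -0.62. Il17a itself, the signature cytokine of Th17 cells, was at 2.03, 2.03, 2.03, 2.03 and 2.02 with IMO-3100, the level without signal, and at 6.49, 5.32, 5.67, 4.78 and 6.29 with saline. The fall was at least 6.54-fold, a bound computed with values under 3 raised to 3 (adjusted p = 3.65e-09). Il12rb1, the receptor chain shared by IL-12 and IL-23, fell by 1.65 on the log2 scale (adjusted p = 0.000363). Il21r, the IL-21 receptor, fell by 1.31 (adjusted p = 0.00178) and overlapped between groups. Ccr6, a chemokine receptor of Th17 cells, was at the edge of the rule (-1.01, adjusted p = 0.0314), overlapped between groups, and lost the call in 8 other settings, among them those without IMO-3100 replicate 3 or 4 or saline replicate 3, 4 or 5. Il23a, which encodes the subunit particular to IL-23, was below 3 on every array. Il17f, Il22 and Il23r were not analysed here. In whole skin, fewer cells of a type and less RNA per cell cannot be told apart, for these genes and for every marker that follows.

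Of 22 genes that keratinocytes express in response to IL-17A, 13 were called lower and none higher, with a median log2 fold change of -2.45 and 17 without overlap between groups. Cxcl1, Cxcl2, Cxcl3 and Cxcl5 encode ligands of the neutrophil receptor CXCR2. Cxcl1 was at 7.19, 6.57, 7.91, 6.25 and 5.21 with IMO-3100 against 9.90, 10.88, 11.72, 9.88 and 10.46 with saline, and its 2 other probe-sets gave log2 fold changes of -3.76 and -4.22 beside -3.94 (adjusted p = 0.000153). Cxcl2 was at 7.30, 8.37, 9.71, 9.45 and 8.47 against 10.69, 11.95, 12.18, 10.29 and 9.94, separated by less than 1 unit between the highest treated mouse and the lowest saline mouse (log2 fold change -2.35, adjusted p = 0.00177). Cxcl3 was at the level without signal or near it in 4 treated mice, while mouse 3 at 6.2 lay inside the saline range (log2 fold change -3.93, adjusted p = 0.00101). Cxcl5 was below 3 in 4 of 5 treated mice, at 3.07 in mouse 3, and at 8.25, 10.33, 10.78, 8.46 and 7.49 with saline (adjusted p = 1.75e-07), and no fold is given because the treated values lie near the level without signal.

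Antimicrobial members of the list were called lower too. Defb3, a beta-defensin, was at 6.53, 8.26, 6.02, 10.97 and 8.99 against 11.98, 12.27, 13.29, 12.14 and 12.98, with mouse 4 clearly the highest of the treated mice (log2 fold change -4.38, adjusted p = 0.00054). Lcn2, a siderophore-binding protein, was at 10.97, 12.16, 11.57, 12.14 and 11.78 against 14.16, 14.32, 14.41, 14.26 and 14.19, without overlap (log2 fold change -2.54 with a standard error of 0.24, adjusted p = 1.93e-06). Saa1, an acute-phase serum amyloid, fell by 4.59 (adjusted p = 7.18e-05) and its neighbour Saa2, which was not on the list, by 5.67 (adjusted p = 2.33e-07). The pair Saa1 and Saa2 is similar in sequence, so that their probe-sets may share transcripts. S100a8, a subunit of calprotectin, was at 12.29, 13.33, 12.64, 14.41 and 13.97 against 15.04, 15.15, 15.06, 15.07 and 14.98, with the saline values close to the top of the scale (log2 fold change -1.73, adjusted p = 0.00379). Its partner S100a9 was separated in all 10 mice but did not pass the test (-1.12, adjusted p = 0.0631). Csf3, the granulocyte growth factor G-CSF, lay between 3.0 and 9.0 with saline and at 2.0 in each treated mouse (adjusted p = 0.00297). Ccl20, the ligand of CCR6 and a member of this list and of the CC chemokine list, had an estimate of 0.90 that did not pass (adjusted p = 0.134). Among the IL-17-induced genes mouse 1 was the lowest treated mouse in 14 of the 21 members above background, mouse 4 the highest in 11 and mouse 3 in 7.

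The 250 bases before the RefSeq start sites of the genes below are shown because 3 of the called CXCR2 ligands, and Il6, hold an NF-κB-like match there. They were read from RefSeq sequences of mouse build GRCm38.p6, which matched 122 of the 154 named genes, and each is written 5' to 3' on the gene's strand (+ for all 4) with the match in capitals. Letters searched were GGANTTTCC on both strands. Cxcl1 is at chr5:90890995-90891244, Cxcl2 at chr5:90903649-90903898, Cxcl3 at chr5:90785851-90786100 and Il6 at chr5:30012864-30013113.
Cxcl1: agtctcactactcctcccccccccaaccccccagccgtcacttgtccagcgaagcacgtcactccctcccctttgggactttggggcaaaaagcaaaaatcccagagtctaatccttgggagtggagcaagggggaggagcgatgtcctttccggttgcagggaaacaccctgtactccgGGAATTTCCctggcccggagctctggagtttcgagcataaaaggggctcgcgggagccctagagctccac
Cxcl2: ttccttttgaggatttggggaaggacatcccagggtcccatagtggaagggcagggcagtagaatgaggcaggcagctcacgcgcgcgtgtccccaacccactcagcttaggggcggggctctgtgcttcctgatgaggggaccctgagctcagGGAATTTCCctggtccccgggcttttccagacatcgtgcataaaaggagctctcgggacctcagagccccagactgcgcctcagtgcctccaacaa
Cxcl3: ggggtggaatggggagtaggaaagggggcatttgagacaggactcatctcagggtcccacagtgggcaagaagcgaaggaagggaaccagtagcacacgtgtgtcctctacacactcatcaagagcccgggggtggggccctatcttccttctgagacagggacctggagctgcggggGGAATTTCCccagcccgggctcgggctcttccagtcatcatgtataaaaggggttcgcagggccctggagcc
Il6: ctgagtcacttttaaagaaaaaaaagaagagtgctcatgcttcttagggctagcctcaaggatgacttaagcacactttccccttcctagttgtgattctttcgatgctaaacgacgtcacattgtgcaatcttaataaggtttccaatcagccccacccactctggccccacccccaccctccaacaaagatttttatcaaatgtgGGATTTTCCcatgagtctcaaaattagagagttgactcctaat
The matches begin at -70 in Cxcl1, -96 in Cxcl2, -72 in Cxcl3 and -43 in Il6, counted from the start site. The letters were present in 350 of 32851 windows of the same length over all genes (1.07%). They were in 23 of the 576 windows of genes called lower (3.99%), in 4 of the 351 windows of genes called higher (1.14%) and in 167 of the 14163 windows of all genes tested (1.18%). A match is a description of letters and not a binding site.

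IL-6, a cytokine that acts through STAT3, had one of the clearest separations. Il6 was at 2.03, 2.03, 2.03, 2.02 and 2.02 with IMO-3100, the level without signal, and at 7.68, 8.96, 10.36, 7.36 and 8.92 with saline, so the fall was at least 50.3-fold (adjusted p = 1.61e-09). Of 15 genes of IL-6, oncostatin M and STAT3 feedback, 4 were called lower and none higher, with a median of -0.29. Osm, oncostatin M, was at 3.98, 3.76, 3.55, 3.60 and 3.26 against 7.83, 8.74, 9.35, 5.54 and 5.26, and saline mice 4 and 5 were 2 units or more below the other saline mice (log2 fold change -3.72, adjusted p = 0.000996). Il24, a member of the IL-10 family that acts on keratinocytes, fell at least 13.7-fold (adjusted p = 3.8e-05) and Lif, leukaemia inhibitory factor, by 1.25 on the log2 scale (adjusted p = 0.0163).

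In the IL-1 and IL-36 family, 4 of 15 members were called lower and 1 higher. Il1b, the inflammasome-processed IL-1β, was at 11.52, 11.61, 10.40, 10.69 and 10.23 against 13.57, 13.81, 14.00, 12.80 and 13.12, with more than 1 unit between the groups (log2 fold change -2.57, adjusted p = 8.44e-05). Il18rap and Il18r1, the chains of the IL-18 receptor, fell by 2.47 and 1.20 (adjusted p = 0.00111 and 0.00112). Il33, an epithelial alarmin, was lower by 1.29 (adjusted p = 0.025), a call lost without IMO-3100 replicate 1 and without saline replicate 3. Il1f10, the gene of IL-38, rose instead, at 4.44, 8.30, 9.28, 8.54 and 7.57 against 2.98, 2.88, 3.11, 2.82 and 3.81, with mouse 1 well below the other treated mice and still above every saline mouse (log2 fold change 4.51, adjusted p = 0.00016). The IL-36 ligands Il1f6, Il1f8 and Il1f9 and the receptor antagonist Il1f5 did not pass, with estimates of -0.16, 0.06, -0.44 and 0.01 (adjusted p = 0.868, 0.956, 0.476 and 1). In all 4, treated mouse 1 was the lowest of the 5, and Il1f6 for example was at 10.83, 11.89, 11.73, 12.68 and 12.11 against 11.87, 12.13, 12.14, 11.68 and 12.22, where the saline mice lay inside the treated range.

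Among 14 NF-κB subunits and feedback regulators, 2 were called lower. Bcl3, an atypical IκB protein, fell by 1.15 (adjusted p = 0.00644), and Nfkb2, the p100/p52 subunit, by 1.01 (adjusted p = 0.000424), the second only just past 2-fold and lost in 7 other settings, among them those without IMO-3100 replicate 3 or 4 or saline replicate 3 or 5. Tnf, which encodes the cytokine TNF, did not pass (-0.37, adjusted p = 0.225). Nfkbiz, the IκBζ that IL-17A induces in keratinocytes, was higher by 0.46 at adjusted p = 0.00701, under 2-fold.

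None of 23 TLR and adaptor genes was called, with 1 member higher and 3 lower at an unadjusted p under 0.05. Tlr7, a target of the compound, was at 11.36, 11.44, 11.26, 10.95 and 11.02 with IMO-3100 and 11.12, 10.96, 10.43, 10.02 and 10.28 with saline, and the groups overlapped (log2 fold change 0.64, adjusted p = 0.483). Its other probe-sets did not overlap between groups and were not called (0.85 and 0.76, adjusted p = 0.318 and 0.361). At the first probe-set the naïve arrays, which share the fit, had an SD of 1.95, against 0.21 with IMO-3100 and 0.46 with saline. Tlr8 was at 4.94, 4.85, 4.12, 4.52 and 3.91 and 4.63, 4.91, 3.85, 3.85 and 3.85, also with overlap (0.25, adjusted p = 0.734). The Tlr9 probe-set was between 2.02 and 2.23 on every array, so it gave no level to compare and was not tested. Myd88, the adaptor of these receptors, was lower by 0.66 at adjusted p = 0.0124, under 2-fold.

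Interferon genes were read as 2 lists. All 20 genes of the interferon-gamma (IFN-γ) axis had estimates below 0, 9 of them were called lower, and the median log2 fold change was -0.83. Ifng was at 3.05, 4.47, 3.05, 2.92 and 3.73 against 6.53, 8.39, 6.89, 5.78 and 5.02, with treated mice 1, 3 and 4 near the level without signal and saline mouse 2 the highest (log2 fold change -3.08, adjusted p = 0.000119). Cxcl9, an IFN-γ-induced ligand of CXCR3, was at 10.78, 10.29, 8.46, 8.91 and 10.12 against 12.98, 13.22, 12.59, 12.42 and 11.64, without overlap (log2 fold change -2.85, adjusted p = 0.00113). Cxcl11, another CXCR3 ligand, fell to the level without signal in all 5 treated mice, at least 15.1-fold (adjusted p = 0.00055). Gbp2b, a guanylate-binding GTPase, fell by 3.41, and Stat4, which relays IL-12 signals, by 2.40 (adjusted p = 0.00184 and 0.000448). Ubd, an IFN-γ- and TNF-induced ubiquitin-like modifier that was not on the list, was at 2.77, 5.89, 4.05, 3.56 and 3.67 against 9.63, 11.11, 9.76, 8.70 and 7.81 (log2 fold change -5.42, adjusted p = 4.23e-05). Ciita, the transactivator of MHC class II genes, fell by 1.64 (adjusted p = 0.0143), and it was the only called member of the 9 MHC class II presentation genes. Tbx21, the Th1 regulator T-bet, fell by 1.29 (adjusted p = 0.00943) with overlap between groups, a call lost without saline replicate 2. Cxcl10 passed narrowly (-1.32, adjusted p = 0.049), overlapped between groups and lost the call in 11 other settings. The receptor Cxcr3 did not pass (-0.85, adjusted p = 0.241).

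The Cxcl9 promoter is shown for an interferon response element-like match, letters GAAANNGAA on either strand. In this list 9 of 18 windows held the letters (50%), counting all its tested genes with a promoter, called or not. The letters were in 883 of the 14163 windows of all genes tested (6.23%) and in 43 of the 576 windows of genes called lower (7.47%). Over all genes with a promoter they were in 2342 of 32851 windows (7.13%). The window of Cxcl9 is chr5:92328080-92328329 on the minus strand of GRCm38.p6 (RefSeq), written 5' to 3' on that strand with the match in capitals, which begins at -175.
Cxcl9: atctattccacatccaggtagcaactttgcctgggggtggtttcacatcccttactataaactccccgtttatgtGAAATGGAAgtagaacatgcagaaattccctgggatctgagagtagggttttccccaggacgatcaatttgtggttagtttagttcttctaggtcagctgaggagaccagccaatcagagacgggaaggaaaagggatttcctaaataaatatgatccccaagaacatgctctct

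Of 22 type I interferon-stimulated genes none was called, and none reached an unadjusted p of 0.05 in either direction. Their median log2 fold change was 0.24. The naïve arrays, which share the fit, had list means with an SD of 1.29, against 0.29 with IMO-3100 and 0.52 with saline. The list means of the treated mice were 12.05, 12.44, 11.94, 11.63 and 11.90 and those of the saline mice 11.96, 12.36, 11.99, 11.33 and 11.10, with wide overlap, and saline mice 4 and 5 were the lowest of the 10. Ifit1 and Mx1, classical antiviral members, had estimates of 0.23 and 0.40 (adjusted p = 0.782 and 0.701). The IFN-γ list means were 9.09, 9.28, 8.67, 8.55 and 8.94 with IMO-3100 and 10.45, 10.96, 10.45, 10.00 and 9.51 with saline, without overlap, and there too saline mice 4 and 5 were the lowest of their group.

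The number of leukocyte markers called varied by cell type. Of 18 T cell markers 12 were called lower and none higher, with a median of -1.40. Il2ra, the high-affinity IL-2 receptor chain, was at 4.80, 4.85, 4.71, 4.70 and 4.52 against 7.58, 7.75, 8.22, 7.27 and 8.00, each group within 1 unit (log2 fold change -3.05 with a standard error of 0.23, adjusted p = 1.75e-07). Its other probe-set, with means of 2.13 with IMO-3100 and 3.00 with saline, gave -0.87 and was not called. Cd8b1, a CD8 co-receptor chain, was at the level without signal in all treated mice, at least 2.85-fold lower than with saline, and lost the call when values were floored at 4. Cd3d, a chain of the T cell receptor complex, fell by 1.13 and Cd2, an adhesion receptor, by 1.44, whereas Cd4, the co-receptor of helper cells, had an estimate of 1.19 and did not pass (adjusted p = 0.0124, 0.0107 and 0.162). The T cell list means of mice 1 to 5 were 7.39, 7.41, 6.88, 7.27 and 7.27 with IMO-3100 and 8.80, 8.77, 8.55, 8.10 and 8.29 with saline, and mouse 3 was the lowest treated mouse in 12 of the 17 members above background.

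Of 15 cytotoxic and NK cell markers 9 were called lower and none higher, with a median of -1.43. Fasl, the death ligand of cytotoxic cells, was at 3.32, 5.02, 3.02, 3.32 and 3.34 against 6.70, 7.16, 7.16, 5.77 and 5.79 (log2 fold change -2.91, adjusted p = 8e-05). Ncr1, the activating receptor NKp46, was at 5.72, 7.28, 5.97, 6.24 and 6.83 against 9.34, 9.59, 8.88, 7.88 and 8.19, with saline mice 4 and 5 the lowest of their group (-2.37, adjusted p = 0.00226). Eomes, a transcription factor of NK and CD8 T cells, fell by 2.11 (adjusted p = 0.00281). The granzymes Gzmb and Gzma had estimates of -2.02 and -1.05 and did not pass (adjusted p = 0.0513 and 0.413). The count of calls in this list ranged from 6 to 12 over the other settings.

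Of 12 neutrophil markers 5 were called lower and none higher, with a median of -1.45. Cxcr2, the receptor of the CXCL ligands above, was at 6.11, 7.16, 6.83, 7.84 and 7.21 against 8.40, 9.39, 9.50, 8.72 and 8.85, without overlap (log2 fold change -1.94, adjusted p = 0.00111). Mmp8, neutrophil collagenase, and Trem1, an activating receptor of neutrophils and monocytes, fell to the level without signal in all 5 treated mice, at least 13.1-fold and at least 6.59-fold (adjusted p = 4.18e-07 and 0.00119). Trem1 was low in saline mice 4 and 5 as well, at 5.70, 7.61, 8.45, 2.84 and 3.99 over saline mice 1 to 5. Csf3r, the G-CSF receptor, had an estimate of -1.16 that did not pass (adjusted p = 0.163). The count of calls in this list ranged from 4 to 8 over the other settings, with 8 under array weights. The defining marker Ly6g was not analysed here.

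Monocyte and macrophage markers gave 1 call in 19 and a median of 0.03. Adgre1 and Cd68, pan-macrophage markers, had estimates of 0.41 and 0.12 (adjusted p = 0.4 and 0.84), and the member called, Chil3, a chitinase-like protein of activated macrophages, was lower by 2.94 (adjusted p = 0.0415), a call lost in 10 other settings. The chemokine receptor Ccr1 of myeloid cells was at 2.58, 4.00, 5.31, 3.95 and 4.08 against 8.91, 9.88, 10.14, 7.99 and 7.74, among the largest falls measured (log2 fold change -4.95, adjusted p = 0.000873). Ccr2, the receptor of inflammatory monocytes, did not pass at its brightest probe-set (-0.71, adjusted p = 0.131), while its 3 other probe-sets were called lower at -2.31, -1.30 and -3.79.

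Of 14 dendritic and Langerhans cell markers 2 were called lower and 1 higher. Ccr7, the receptor that guides dendritic cells to lymph nodes, fell by 2.06 (adjusted p = 0.00681) and the integrin Itgax (CD11c) by 1.14 (adjusted p = 0.0394), the second lost in 10 other settings. Batf3, a transcription factor of cross-presenting dendritic cells, rose by 1.42 (adjusted p = 0.0197), and the call was lost without IMO-3100 replicate 1 and without saline replicate 2 or 3. Ccl17, a chemokine of dendritic cells in the list of 24 CC chemokines and receptors, fell by 2.27 (adjusted p = 0.0122), and 4 of that list were called lower and none higher.

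Some genes of basophils, mast cells and type 2 immunity were also lower. Mcpt8, the protease that marks basophils, was at 2.09, 2.36, 2.05, 2.09 and 2.09 against 9.38, 8.15, 8.35, 8.35 and 6.37, at least 34.8-fold lower (adjusted p = 1.67e-09). Hdc, histidine decarboxylase, the enzyme that makes histamine, was at 9.05, 9.59, 8.43, 8.24 and 8.30 against 10.84, 11.84, 12.33, 10.70 and 10.67 (log2 fold change -2.55, adjusted p = 0.000404). Fcer1a, the IgE-binding chain of the high-affinity receptor, fell by 1.97 (adjusted p = 0.0154). Hdc and Fcer1a were the called members among 11 mast cell markers, whose median was -0.10, and basophils and neutrophils also express members of that list. Of 13 eosinophil and type 2 genes 4 were lower, among them Alox15, a lipoxygenase, at 3.41, 2.95, 3.33, 2.34 and 4.85 against 7.38, 6.96, 6.87, 7.02 and 6.29 (log2 fold change -3.53, adjusted p = 0.000191), and Il13ra2, the IL-13 decoy receptor, at -1.68 (adjusted p = 0.000372). Of 10 B and plasma cell genes 1 was called, Tnfrsf17 (BCMA), higher by 2.69 (adjusted p = 0.0241), lost without IMO-3100 replicate 1 and without saline replicate 2 or 3.

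**Figure D4:**
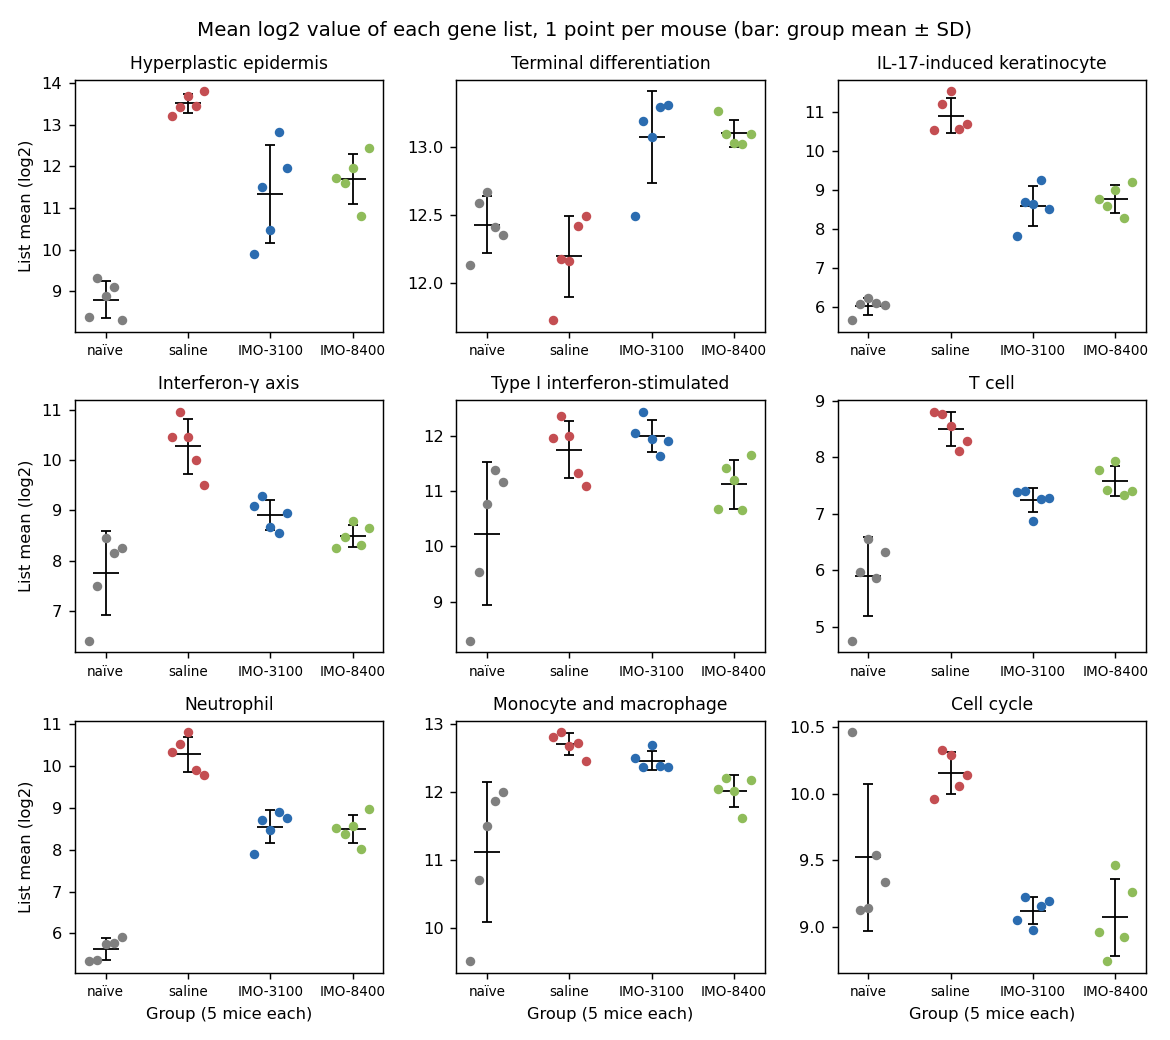
Mean log2 value over the tested members of 9 gene lists (vertical axis), 1 point per mouse, for the naïve, saline, IMO-3100 and IMO-8400 groups, with black bars at the group mean ± SD (n = 5). T cell means lay between 6.88 and 7.41 with IMO-3100 and between 8.10 and 8.80 with saline, whereas monocyte and macrophage means (12.37 to 12.69 and 12.45 to 12.88) and type I interferon-stimulated gene means (11.63 to 12.44 and 11.10 to 12.36) overlapped.

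Genes of mitosis and DNA replication were lower with IMO-3100. All 31 cell cycle genes tested had estimates below 0, 27 had an FDR under 0.05, 14 were called lower, 26 did not overlap between groups, and the median log2 fold change was -0.96. Plk1, the polo-like kinase of mitotic entry, was at 5.55, 5.47, 5.42, 5.35 and 5.74 with IMO-3100 and 7.01, 8.24, 8.01, 7.37 and 8.37 with saline, with more than 1 unit between the groups (log2 fold change -2.29, adjusted p = 0.000544). Aurka, a spindle pole kinase, was at 7.67, 7.65, 7.24, 7.31 and 7.39 against 8.55, 9.53, 9.93, 9.65 and 9.64, where saline mouse 1 was the lowest of its group (-2.01, adjusted p = 0.000122). Cenpe, a kinetochore motor, fell by 1.75 and Cdc20, an activator of the anaphase-promoting complex, by 1.68 (adjusted p = 0.000889 and 9.97e-05). Mki67, the proliferation antigen Ki-67, was lower by 0.95 at adjusted p = 0.00204, just under 2-fold. The list means were 9.06, 9.22, 8.98, 9.16 and 9.19 with IMO-3100 and 9.96, 10.33, 10.29, 10.06 and 10.14 with saline, and 10.46, 9.12, 9.15, 9.54 and 9.34 in the naïve mice. Naïve mouse 1 was above every saline mouse and the other naïve mice were below them.

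Few metabolic genes passed 2-fold. Of 20 glycolysis and hypoxia genes 12 had an FDR under 0.05 and lower values, but only 2 passed 2-fold. Pfkl, the liver phosphofructokinase, fell by 1.30 (adjusted p = 0.000103), with 1 of its other probe-sets called at -1.17 and another not called at -0.88, and Adm, the vasodilator peptide adrenomedullin, fell by 1.19 (adjusted p = 0.00219), a call lost without IMO-3100 replicate 5. None of 17 respiratory chain genes was called, though 10 were lower at an unadjusted p under 0.05. Among 18 antioxidant and NRF2 genes 2 were called lower and 1, Cat, higher. Slc7a11, the cystine transporter, was at 2.02, 2.49, 2.04, 4.06 and 2.49 against 7.03, 7.72, 8.68, 6.79 and 7.60, near the level without signal in 4 treated mice (log2 fold change -4.94, adjusted p = 7.39e-07). Gsta4, a glutathione transferase, was at 9.89, 10.05, 9.44, 11.41 and 10.17 against 12.41, 13.60, 14.33, 13.07 and 13.35, with treated mouse 4 the highest (-3.16, adjusted p = 1.09e-05).

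Outside the epidermis and leukocytes, matrix and vessel genes changed in part. Of 20 matrix proteases and inhibitors 8 were lower and 2 higher, with a median of -0.67. Timp1, a metalloproteinase inhibitor, was at 9.73, 10.23, 10.85, 10.13 and 10.61 against 14.01, 14.16, 14.20, 13.34 and 13.43, with 2 units or more between the groups (log2 fold change -3.52, adjusted p = 1.1e-05), while its relative Timp4 rose to 7.07, 7.82, 7.08, 6.58 and 7.10 from 4.10, 2.91, 3.10, 5.48 and 4.74 (3.07, adjusted p = 0.000253). Timp3 rose with Timp4, by 1.27 (adjusted p = 0.000153). Mmp13, an interstitial collagenase, fell by 3.50 although treated mouse 4 lay inside the saline range (adjusted p = 0.00307). Of 16 collagens 1 was called, Col12a1, a fibril-associated collagen, lower by 2.65 (adjusted p = 0.00036), and none of 12 fibroblast markers was called (3 higher and 1 lower at an unadjusted p under 0.05). Of 16 endothelium and leukocyte adhesion genes 4 were called lower and 1 higher. Selp, P-selectin, was at 8.12, 8.31, 8.69, 8.51 and 8.50 against 10.29, 10.90, 11.21, 10.23 and 9.98 (-2.09, adjusted p = 0.000287), Vcam1 fell by 1.18 (adjusted p = 0.0108), and Sele, E-selectin, fell below 3 in all treated mice, at least 4.59-fold (adjusted p = 7.2e-05). Lipg, endothelial lipase, was the member called higher (1.09, adjusted p = 0.0299), with its other probe-set at 0.90 and not called. The Lipg call was lost without IMO-3100 replicate 2 and without saline replicate 1 or 4. It was also lost without the filter, with array weights and with the mean of its probe-sets.

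Adipocyte markers were higher with IMO-3100 in 5 of 15, with 9 at an FDR under 0.05, and a median of 0.43. Adipoq, adiponectin, rose by 1.03 (adjusted p = 0.000536), and Cidec, a lipid droplet protein, was at 11.15, 10.50, 10.54, 9.99 and 10.37 against 8.88, 7.79, 9.15, 10.13 and 9.80, with saline mouse 2 the lowest and mouse 4 inside the treated range (1.36, adjusted p = 0.00854). Saline mouse 2 weighed on this list. Without it the count of calls was 2, and Retn, the adipokine resistin, and Slc2a4, the insulin-responsive glucose transporter, were no longer called. Pck1, which opens gluconeogenesis and glyceroneogenesis, was at 9.88, 9.00, 9.16, 8.31 and 8.53 against 5.19, 2.45, 5.70, 7.45 and 7.22, where saline mouse 2 was again the lowest (log2 fold change 3.37, adjusted p = 0.00184). Its other probe-set lay close to the level without signal in both groups (means 2.31 with IMO-3100 and 2.17 with saline). Scd3, a stearoyl-CoA desaturase of sebocytes, rose by 2.13 (adjusted p = 0.0015), the single call among 10 sebaceous gland markers and among 19 fatty acid and sterol synthesis genes. The part of subcutaneous fat in these values was not tested.

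Other genes had large rises, and the naïve mean is given beside Serpina12 and Gng4. Serpina12, the adipokine vaspin, which keratinocytes also express, was at 11.42, 12.67, 12.67, 12.45 and 12.39 against 4.06, 7.15, 6.73, 7.40 and 7.25, with saline mouse 1 the lowest (log2 fold change 5.80, adjusted p = 6.44e-07, naïve mean 13.07). Gng4, a G protein gamma subunit, was at 8.84, 10.05, 10.14, 9.32 and 10.05 against 3.17, 3.18, 4.07, 6.34 and 5.46 (5.24, adjusted p = 2.4e-06, naïve mean 9.87). Car6, a secreted carbonic anhydrase, rose by 4.42 and Cbs, cystathionine beta-synthase, by 3.60 (adjusted p = 0.00242 and 0.000676). In the saline mice Cbs ranged from 3.3 in mouse 1 to 7.8 in mouse 4. Col4a6, a basement membrane collagen chain, was at 8.76, 9.30, 8.90, 8.86 and 8.85 against 4.19, 5.83, 5.15, 7.28 and 6.52 (3.14, adjusted p = 8.56e-05). Large falls outside the lists included Car4, a membrane-anchored carbonic anhydrase, at 5.15, 5.03, 5.23, 3.54 and 4.81 against 9.03, 10.64, 10.70, 8.86 and 8.42 (-4.78, adjusted p = 9.87e-07), and Sox11, a developmental transcription factor, at -4.27 (adjusted p = 0.00181), of whose 4 other probe-sets 2 were called (-3.32 and -3.06) and 2 were not (-1.42 and -0.51). The Sox11 probe-set at -0.51 lay close to the level without signal in both groups (means 2.02 and 2.53). Of the falls that ended near background, counted in 69 genes, those with the largest bounds after Il6 were Cdhr1, a protocadherin (at least 35.3-fold), Mcpt8, and Slc26a4, the anion exchanger pendrin (at least 34.4-fold). Slc26a4 was at 2.02, 2.02, 2.02, 2.02 and 2.02 with IMO-3100 and 7.74, 6.73, 9.22, 7.49 and 9.34 with saline.

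Several clock output genes were higher. Of 17 circadian clock genes 4 were called higher and 1 lower, with 7 at an FDR under 0.05 in the higher direction and these 2 counts of calls held in every setting, although not always with the same genes. Hlf, a PAR bZIP transcription factor, was at 9.10, 9.59, 9.89, 9.27 and 10.02 with IMO-3100 and 5.69, 6.73, 5.57, 7.16 and 7.23 with saline (log2 fold change 3.10, adjusted p = 5.7e-05). Dbp, another PAR bZIP factor, was at 12.26, 12.17, 12.26, 12.24 and 12.56 against 10.96, 10.70, 10.64, 11.40 and 11.02 (1.35, adjusted p = 0.00364), and Tef, the last of that family, was higher by 0.80 at adjusted p = 0.00174, under 2-fold. Per2 and Per3, repressors within the clock, rose by 1.51 and 1.11 (adjusted p = 0.00106 and 0.00116). The other probe-set of Per2 lay close to the level without signal in both groups (means 2.02 with IMO-3100 and 2.16 with saline). The mean of both Per2 probe-sets was not called. Nfil3, a repressor that competes with the PAR bZIP factors for their sites, was at 9.31, 9.25, 8.71, 8.54 and 8.54 against 10.79, 10.96, 11.31, 10.52 and 10.78 (4-fold lower, adjusted p = 6.8e-05). The core genes Arntl (BMAL1) and Clock did not pass (-0.16 and 0.14, adjusted p = 0.415 and 0.439). The list means were 9.44, 9.44, 9.64, 9.48 and 9.57 with IMO-3100 and 8.91, 8.94, 9.06, 9.17 and 9.15 with saline, without overlap, and 9.01 to 9.48 in naïve mice. The sources used here do not give the hour at which each mouse was sampled.

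Some genes were called with IMO-3100 although saline and naïve skin were alike in them by a set rule. A gene was placed off the IL-23 axis when saline and naïve skin differed by less than 0.5 on the log2 scale and were not called different, which held for 8416 genes. With no injection recorded for the naïve mice, this difference holds IL-23, the injections and the vehicle together, and they cannot be told apart. Of these, 31 were called higher (0.368%) and 62 lower (0.737%) with IMO-3100, and 26 and 55 of them did not overlap between groups. This class and the comparison with IMO-3100 use the same 5 saline arrays.

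Scgb1b27, a secretoglobin of the androgen-binding protein family, was the clearest of them. It was at 9.22, 10.14, 8.51, 8.28 and 8.57 with IMO-3100 and at the level without signal with saline (2.44, 2.03, 2.44, 2.25 and 2.22), so it was at least 61.5-fold higher (adjusted p = 2.72e-10). Its naïve mean was 2.12 and its IMO-8400 mean 9.71. All 3 secretoglobins tested were called higher. Scgb1a1, a protein of airway club cells for which naïve skin averaged 9.38, rose by 2.32 (adjusted p = 0.011). Scgb2b27 rose at least 1.59-fold (adjusted p = 0.0136), a call lost with values floored at 4. Scgb1a1 and Scgb2b27 overlapped between groups. Secretoglobins of this family can be near-identical copies, so the probe-set may report more than 1 gene. The promoter of Scgb1b27 is shown because no other gene rose so far from the level without signal. It lies at chr7:34021231-34021480 on the plus strand of GRCm38.p6 (RefSeq), 5' to 3', and holds none of the 3 motifs searched (the other being TTCNNNGAA, in 2306 of 32851 windows, 7.02%), so no base is in capitals.
Scgb1b27: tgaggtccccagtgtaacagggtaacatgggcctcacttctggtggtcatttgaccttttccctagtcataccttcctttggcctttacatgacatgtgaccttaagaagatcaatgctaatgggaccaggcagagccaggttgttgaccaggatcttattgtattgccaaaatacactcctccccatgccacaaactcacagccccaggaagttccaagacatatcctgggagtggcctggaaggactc

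Among the other rises off the IL-23 axis, Mybpc3, which encodes a cardiac myosin-binding protein, was at 8.12, 8.97, 5.98, 5.27 and 6.76 against 2.82, 3.08, 2.86, 2.78 and 2.78, wide among treated mice and narrow among saline mice (log2 fold change 4.16, adjusted p = 2.99e-05). Acsm1, a medium-chain acyl-CoA synthetase, was at 5.22, 6.80, 6.27, 7.08 and 6.46 against 3.26, 4.00, 3.80, 4.54 and 4.00 (2.45, adjusted p = 0.000251). Zfp811, a zinc finger gene, rose by 2.23 and Cacna1e, a calcium channel subunit, by 1.77 (adjusted p = 0.000711 and 0.00157). Gfi1b, a transcriptional repressor that acts in erythroid and megakaryocytic cells, rose by 2.02 (adjusted p = 0.0002). Clec4b1, a C-type lectin of myeloid cells, rose by 1.94 (adjusted p = 0.0193), a call lost without saline replicate 2 or 3. Erp27, a chaperone of the endoplasmic reticulum, was at least 2.21-fold higher (adjusted p = 0.0169), with treated mice 1 and 2 the high ones at 5.93, 6.20, 3.00, 2.50 and 3.11 over mice 1 to 5, and its call was lost with values floored at 4 and with the 2 groups fitted alone. Gfi1b was at 5.44, 5.39, 4.65, 3.76 and 5.04 against 2.51, 2.80, 2.80, 3.29 and 2.80, and its call was lost with values floored at 4.

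The falls off the axis named here lay below both the saline and the naïve mean, which the rule fixes in advance. Adamts4, a protease of aggrecan, was at 7.25, 7.14, 7.12, 6.46 and 7.80 with IMO-3100 and 9.01, 9.69, 10.03, 9.20 and 10.24 with saline, beside a naïve mean of 9.45 (log2 fold change -2.48, adjusted p = 6.06e-05). Lrg1, an acute-phase glycoprotein that acts on vessels, was at 7.35, 7.57, 7.12, 6.25 and 6.48 against 9.08, 8.74, 9.62, 8.93 and 9.00 (-2.12, adjusted p = 0.000622, naïve mean 9.19). Angptl4, an inhibitor of lipoprotein lipase, was at 9.22, 9.60, 9.06, 9.10 and 8.41 against 10.16, 11.45, 11.57, 10.16 and 10.97 (-1.78, adjusted p = 0.00206). Its other probe-set lay close to the level without signal in both groups (means 2.02 with IMO-3100 and 2.31 with saline). Entpd3, an ectonucleotidase, fell at least 4.79-fold (adjusted p = 0.00823) and lost the call with values floored at 4, and Pi15, a peptidase inhibitor, fell by 1.71 on the log2 scale (adjusted p = 0.00376). Wdr90, a WD-repeat protein, was at 6.36, 6.57, 5.15, 6.06 and 5.83 against 7.66, 8.10, 7.69, 7.47 and 7.71 (-1.73, adjusted p = 0.000195). Etv4, an ETS factor, was called at -1.81 (adjusted p = 0.0436) and lost in 11 other settings.

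Several more off-axis genes are named here after their values were seen. Foxm1, the transcription factor of the mitotic programme, fell by 1.56 and Aurkb, the kinase of the chromosomal passenger complex, by 1.25 (adjusted p = 0.00547 and 0.00241). The naïve values of Foxm1 ranged from 6.36 to 8.39 (mean 6.82, saline mean 7.26). Those of Aurkb ranged from 8.33 to 10.02 (mean 9.11, saline mean 9.27). Whether a single naïve mouse places these genes off the axis was not tested. Cad, the enzyme of the first steps of pyrimidine synthesis, Ctps, CTP synthase, and Dut, dUTPase, fell by 1.65, 1.22 and 1.14 (adjusted p = 0.00354, 0.0191 and 0.00241). Hp, the acute-phase protein haptoglobin, fell by 1.23 and Il17re, the IL-17C receptor chain of epithelium, by 1.21 (adjusted p = 0.000838 and 0.00976). Plvap, a diaphragm protein of fenestrated endothelium, fell by 1.02 and Procr, the endothelial protein C receptor, by 1.33 (adjusted p = 0.000951 and 0.0183).

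**Figure D5:**
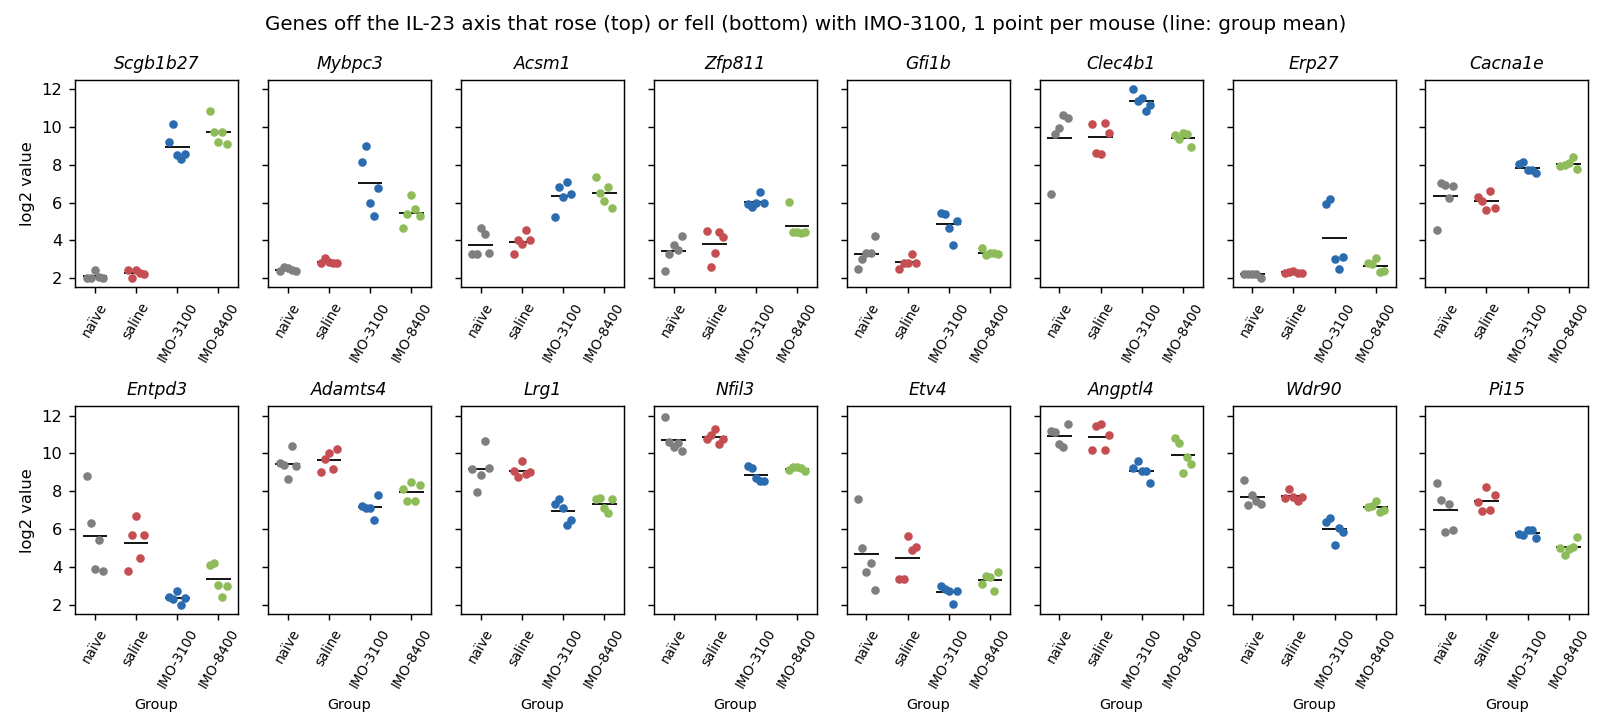
Log2 value (vertical axis) of the 8 largest rises (top) and 8 largest falls (bottom) off the IL-23 axis in each mouse of the naïve, saline, IMO-3100 and IMO-8400 groups, 1 point per mouse, with a line at the group mean. Naïve and saline means are close by definition, and the IMO-3100 points of Scgb1b27 lie between 8.28 and 10.1 where its saline points lie at 2.44 or below.

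At the matched dose, days and tissue, IMO-3100 differed from IMO-8400 at 72 of 13909 genes. Of these, 19 were also among the 1010 genes called against saline. The 2 comparisons share the 5 IMO-3100 arrays, so this overlap is expected in part and is not read as a result. IMO-3100 is described as an antagonist of TLR7 and TLR9, and IMO-8400 as an antagonist of TLR7, TLR8 and TLR9. Gpr31b, a G protein-coupled receptor gene, averaged 7.68 with IMO-3100, 5.71 with saline, 2.48 with IMO-8400 and 2.14 in naïve skin, so it was above saline with 1 compound and below saline with the other (IMO-3100 minus IMO-8400 5.20, adjusted p = 1.24e-09). Lipg was higher with IMO-3100 than with IMO-8400 by 2.97 (adjusted p = 0.000725) and Gfi1b by 1.50 (adjusted p = 0.0141). St18, a zinc finger factor, and St7 were higher by 1.63 and 1.52 (adjusted p = 0.00392 and 0.000194). Il2ra and Alox15 were lower with IMO-3100 than with IMO-8400, by 1.26 and 2.04 (adjusted p = 0.0105 and 0.0364), and Wdr90 by 1.16 (adjusted p = 0.0216). Kcna1, a potassium channel, and Ppara, a lipid-sensing nuclear receptor, were above saline with IMO-3100 (2.07 and 1.10) and higher still with IMO-8400 (IMO-3100 minus IMO-8400 -2.04 and -1.12, adjusted p = 0.0432 and 0.0444). The other probe-sets tested for them were not called against saline, with log2 fold changes of 0.87 and 1.09 for Kcna1 and 0.72 and 0.64 for Ppara. Against IMO-8400 these Ppara probe-sets gave -0.90 and -0.76 and were not called (adjusted p = 0.188 and 0.267). Those of Kcna1 gave -1.765, which was called, and -1.517, which was not (adjusted p = 0.0472 and 0.054). Among the genes described above, Il17a, Il6, Krt16 and Mt4 had differences between the compounds of -0.03, -0.01, -0.64 and 0.65 that did not pass (adjusted p = 0.982, 1, 0.271 and 0.5). The 95% intervals of these differences ran from -0.48 to 0.42, from -0.76 to 0.74, from -1.34 to 0.05 and from -0.43 to 1.73. Il17a and Il6 were near background with both compounds, and none of the 4 results shows that the compounds act alike.

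The remaining lists held few calls or none. Single members were called higher among immediate early genes (Atf3, 1.09, adjusted p = 0.0151), basal keratinocyte markers (Dst, 1.01, adjusted p = 0.000675) and nerve and Schwann cell markers (Cdh19, 1.23, adjusted p = 0.00523). The Atf3 call was lost with array weights and without IMO-3100 replicate 1 or 2. That of Dst was lost with array weights, with the mean of its probe-sets, and without IMO-3100 replicate 5 or saline replicate 1. Other probe-sets of Dst were at 1.20, called, and at 0.19 and 0.38, not called. Among 23 Wnt genes Wnt3, a ligand, and Dkk2, an inhibitor, were called higher (1.53 and 1.57, adjusted p = 0.00101 and 0.0178). The Dkk2 call was lost without IMO-3100 replicate 1 or saline replicate 3 and with the 2 groups fitted alone. Sdf2l1, a chaperone partner of the endoplasmic reticulum, was the call among 16 heat shock and unfolded protein response genes (-1.06, adjusted p = 0.00533, lost without saline replicate 1), and the peptide transporter Tap2 the call among 13 MHC class I genes (-1.13, adjusted p = 0.00344), both lower. No member was called among 16 barrier lipid and lipoxygenase genes (3 higher and 2 lower at an unadjusted p under 0.05), 12 complement genes (0 and 0), 7 ribosomal protein genes (1 and 0), 10 melanocyte markers (1 and 0), 5 erythrocyte and platelet genes (0 and 0) and 18 skeletal muscle markers (10 and 0). The 23 hair shaft and anagen follicle genes also gave no call (0 and 0), and 19 of them were near background in both groups. Muscle list means were 13.82, 13.71, 13.84, 13.42 and 13.74 with IMO-3100 and 13.22, 12.97, 13.30, 13.53 and 13.39 with saline, and only saline mouse 4 lay inside the treated range.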

How the data were processed

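RNA of full-thickness skin was measured on Affymetrix mouse4302 arrays, 1 mouse per array. The deposited values are log2 expression values that the authors computed with GCRMA (its version is not given in the sources used) from the array scans, after array checks with Harshlight and arrayQualityMetrics. The 5 and 5 arrays compared were grouped by their treatment labels. The labels carry no replicate numbers, so mice 1 to 5 are names in record order. The members and lists were chosen with earlier results of these data known.

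Probe-sets entered the test when their value was over 2 in at least 3 arrays and their SD over 0.1, which kept 30960 of 45101. The value part alone removed none. Group means of all 20 arrays were fitted with limma 3.58.1 in R 4.3.3, p-values were adjusted by Benjamini-Hochberg over all probe-sets tested, and every adjusted p here is from that fit unless another is named. Calls needed an FDR under 0.05 and an FCH over 2. Each gene was read by its tested probe-set of highest mean. Of the probe-sets, 34958 had a single gene symbol in the platform annotation, 932 had several and 9211 had none, and the last 2 kinds were not named. A group was near background when all 5 values were below 3, and folds against such a group are bounds with values raised to 3. The platform gives no counts, so the number of mice limits the precision.

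Genes were named from among the 15 largest rises and 15 largest falls without overlap and with both means of at least 3, the 8 and 8 largest off the IL-23 axis, up to 4 called members of each list, the 6 and 6 largest bounds, and genes the study discusses. Other list members were named after their values were seen. Alternatives were the filter, a floor of 4, a common 75th percentile, quantile normalization, the 2 groups alone, a trended robust variance, array weights, the Gapdh 3' minus 5' difference as covariate, the mean of a gene's probe-sets, and leaving out each array. The fit was tested on simulated data.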

Additional observations from a re-analysis of the deposited data

Results flagged for a closer look

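In the lists' means, 6 of 92 sets of 5 mice had a highest or lowest mouse whose gap to the next exceeded 0.71 of the range, and chance marks about 1 in 20. Treated mouse 1 was the lowest for terminal keratinocyte differentiation, at 12.49 where the others lay between 13.08 and 13.31. The same mouse was the lowest for ribosomal proteins, at 10.41 where the others lay between 10.62 and 10.64. Treated mouse 3 was the lowest for T cell markers, at 6.877 against 7.267 to 7.405, and for mast cell markers, at 8.796 against 9.004 to 9.08. Treated mouse 2 was the lowest for erythrocyte and platelet genes, at 6.253 against 6.447 to 6.513. Saline mouse 2 was the highest for endothelium and leukocyte adhesion genes, at 9.343 against 9.045 to 9.124.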

How the results depend on the processing

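Over the alternatives that tested probe-sets, those called higher with IMO-3100 ran from 666 to 1136 and those called lower from 967 to 1447, most of both with array weights and fewest without saline replicate 3. Leaving out single arrays gave 666 to 958 and 967 to 1267. The common 75th percentile moved the median of all probe-sets by 0.0515 on the log2 scale and gave 951 higher and 1044 lower. Of the 144 named genes called, 114 kept their call in every alternative, 30 lost it in at least 1 and none changed sign. Signs turned in 3 genes that were not called. The Il1f5 log2 fold change was 0.01, ran from -0.116 to 0.288 over the fits that left out 1 array, and was -0.0387 as the mean of its probe-sets. The Il1f6 log2 fold change was -0.16 and ran from -0.365 without IMO-3100 replicate 4 to 0.0955 without IMO-3100 replicate 1. The Il1f8 log2 fold change was 0.06 and ran from -0.200 to 0.363 without the same 2 arrays. The cause was not tested. Genes near background lost calls with values floored at 4, namely Cd8b1, Entpd3, Etv4, Gfi1b, Krt20, Scgb2b27, Erp27, Tmem35a, 2610206C17Rik and 5430427M07Rik, since their differences lie mostly below that floor. No paired analysis was possible because the labels carry no replicate numbers and each mouse received 1 treatment. With 5 mice a group and fold changes under 2-fold left out of the calls by rule, smaller differences are given only where a gene is named.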

Other observations

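Myh3, Tnni1 and Myl4 were singled out after their values were seen. Myh3, the embryonic myosin heavy chain, ranged from 3.33 to 10.97 with IMO-3100 and from 7.55 to 11.07 with saline (log2 fold change -3.39, adjusted p = 0.0408, IMO-3100 minus IMO-8400 -5.07, adjusted p = 0.0271). Tnni1, slow skeletal troponin I, differed by -2.87 from saline and -4.41 from IMO-8400 (adjusted p = 0.0446 and 0.0262), and 4 of its 5 IMO-3100 values were at 3.99, the value of 2 naïve mice too. Myl4, an embryonic and atrial myosin light chain, differed by -2.15 and -2.93 (adjusted p = 0.0421 and 0.0382). In all 3 genes the IMO-3100 and saline mice overlapped, and no test of stability against leaving out a mouse was made for them.

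A probe-set of Cabp4, a calcium-binding protein of photoreceptor synapses, was above background with IMO-3100 alone. It averaged 5.55 with IMO-3100 (4.92 to 5.98 over 5 mice), 2.16 with saline, 2.12 with IMO-8400 and 2.04 in naïve skin (log2 fold change against saline 3.38, standard error 0.141, limma adjusted p = 3.96e-11, and against IMO-8400 3.43, adjusted p = 6.23e-11). The other probe-set of Cabp4, differed by 0.60 from saline at adjusted p = 0.0156 and was not called. The probe-set was singled out after its values were seen, and what it hybridises to was not tested.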
